A study of Mus musculus with 35 samples.

Results

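Young neurons of the E14.5 mouse brain were compared between plates labelled Mof knockout and wild-type plates, across all genes detected in them. A well was counted as a young neuron when it held more than 1500 transcripts, when its transcripts of Tubb3, Stmn2, Dcx, Gap43 and Mapt summed to 5 or more, and when that sum exceeded the sum for neural progenitor, mural, endothelial and microglial markers each. The 174 young neurons were thus chosen by their own transcript counts, out of 1591 wells that passed the depth minimum, of 2208 filled wells on 6 plates. Of the 174 young neurons, 86 came from wild-type plates, with 39 on plate 1, 39 on plate 2 and 8 on plate 3. The other 88 came from the plates labelled Mof knockout, with 2 on plate 4, 59 on plate 5 and 27 on plate 6. Young neurons were 11.2%, 12.3% and 18.6% of the wells over the depth minimum on plates 1, 2 and 3, and 0.593%, 30.3% and 7.71% on plates 4, 5 and 6. The mean share of 12.9 ± 15.5% (SD, n = 3) on the knockout plates and 14.0 ± 4.0% in wild type gave p = 0.9 in an exact two-sided permutation test over plates, and the knockout plates spanned the whole wild-type range.

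The study dissociated brains of wild-type and Mof knockout mouse embryos, sorted single cells into plates and made mCEL-Seq2 libraries, which count molecules near the 3′ end of each transcript by a unique molecular identifier. The labels name the genotype only for plates 4 to 6, and plates 1 to 3 were taken as wild type from the study's design. The sources used here state neither the allele of Mof, the deleted part of the gene, nor a promoter or Cre line, and they do not say whether a plate holds cells of 1 brain. Plates 4 to 6 held cells of both sexes, as given below, and so of more than 1 brain. The plate is the sample in every test, 3 against 3 unless stated otherwise, so p-values measure the spread between plates and may cover only technical spread. Genotype and plate cannot be told apart.

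MOF, the product of Kat8, is an acetyltransferase of histone H4 that works in the MSL and NSL complexes, of which the latter is known for its presence at promoters of widely used genes. Young neurons have just left the cell cycle and are building an axon. They carry neuronal tubulins and associated proteins (Tubb3, Dcx, Mapt), a tubulin regulator (Stmn2) and a growth cone protein (Gap43). Cortical excitatory neurons, forebrain GABAergic neurons and neurons of the diencephalon, midbrain and hindbrain arise in separate regions and are told apart by their transcription factors.

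The levels of the 5 markers that chose the cells are a description only, since the rule required them. Their summed level was 5608, 4403 and 3597 CPM (counts per 1000000 of all transcripts summed over the young neurons of a plate) on plates 1, 2 and 3, and 3662, 4557 and 4598 CPM on plates 4, 5 and 6. Within single cells the marker sum had a median of 39, 27 and 9 transcripts on the wild-type plates and 24, 28 and 22 on the knockout plates. There were 6 wells at the minimum of 5, with a median of 6165 transcripts in all, and 4 wells just below it at 4, with a median of 2095. The median young neuron held 7919, 7581 and 3482 transcripts on plates 1, 2 and 3, and 6562, 7297 and 6348 on plates 4, 5 and 6. The difference of the mean plate medians was 408 transcripts with p = 1 in an exact two-sided permutation test over plates, where 3 against 3 cannot go below 0.1. The plates held different numbers of cells, and their sums were 324738, 321943 and 39248 transcripts on plates 1, 2 and 3 against 13123, 452341 and 179722 on plates 4, 5 and 6.

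Several measured features of the libraries moved with genotype. On the wild-type plates 76 of the 86 young neurons had been sorted through the gate that lacks vascular and microglial surface markers, and 33 of 39 on plate 1 and 36 of 39 on plate 2 came from 1 library each. No gate was given for the wells of plates 4 to 6. Of the young neurons on wild-type plates, 72 had a transcript of Xist, the X-inactivation RNA of female cells, and none had one of the Y-linked genes Ddx3y, Eif2s3y and Uty. Kdm5d, a Y-linked gene not used for this count, had 2, 1 and 0 transcripts on plates 1, 2 and 3 and 1, 7 and 3 on plates 4, 5 and 6. On the knockout plates 16 had Xist and 38 had a transcript of these 3 genes. Among all wells over the depth minimum, 74, 55 and 97 on plates 4, 5 and 6 had Xist and 153, 83 and 127 had a transcript of the 3 Y-linked genes, and libraries of the same knockout plate differed in this. On plates 1, 2 and 3 the corresponding wells were 274, 251 and 24 with Xist and 1, 2 and 0 with a Y-linked transcript. Within plate 5, library 5 had 0 wells with Xist and 39 with a Y-linked transcript, where library 7 had 27 and 7. The part of sex and of the sort in the results that follow was not tested.

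Kat8, the targeted gene, was too sparse in young neurons to check the genotype. It was read 5, 10 and 1 times on plates 1, 2 and 3 and 0, 5 and 5 times on plates 4, 5 and 6, which amounts to 24.0 ± 7.94 CPM (SD, n = 3 plates) in wild type and 13.0 ± 14.0 CPM (SD, n = 3) on the knockout plates. The ranges overlapped, with 27.8 CPM on plate 6 above 15.4 CPM on plate 1, and the exact two-sided permutation test over plates gave p = 0.3. In all, 16 Kat8 transcripts in 685929 stood against 10 in 645186, and a difference was not detectable at this depth. Where the deletion leaves the 3′ end intact, these reads check nothing. In neural progenitors of the same plates Kat8 summed to 27.3 CPM in wild type and 4.56 CPM on the knockout plates. In the same order, it was at 15.9 and 14.9 CPM in mural cells, and at 15.2 and 14.2 CPM in microglia. Endothelial cells had 14.3 and 9.21 CPM. These values are pooled over plates and were not tested.

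Between knockout and wild-type young neurons 6 genes passed the test, and 2 of them are sex-linked. The edgeR quasi-likelihood test on the 6 plate sums covered 4336 genes that passed its filter on low counts, of which 4 were higher and 2 lower at a Benjamini-Hochberg adjusted p under 0.05, which is 0.138% of the genes tested (0.0923% higher and 0.0461% lower). At an unadjusted p under 0.05 there were 247 genes, 5.7% of those tested. Xist fell, and Ddx3y, a Y-linked RNA helicase, rose. The other 4 were Sox21, Tuba1c, Zbtb7a and Lars2.

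**Figure D1:**
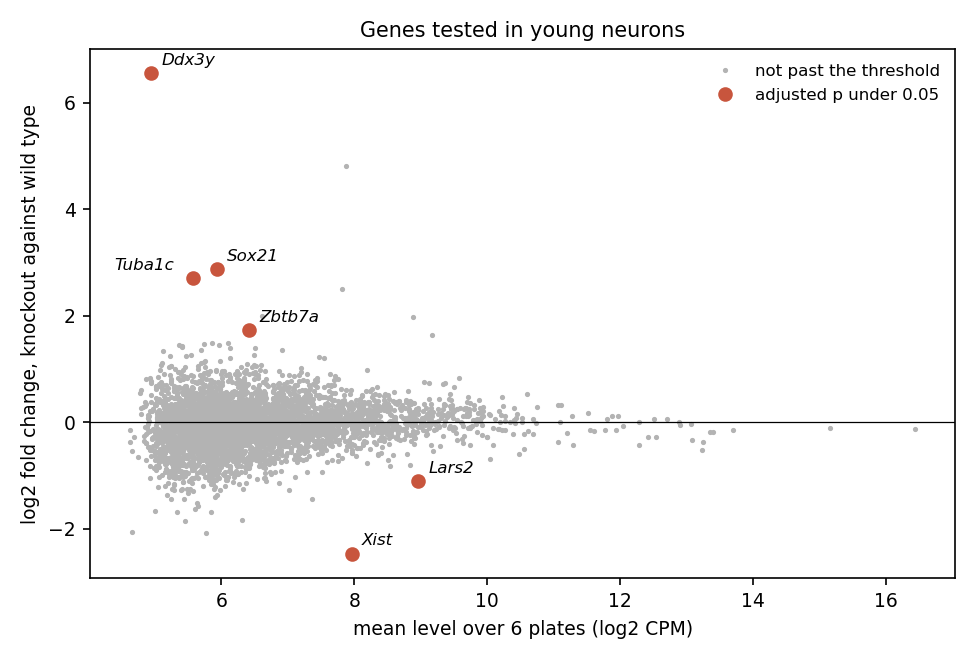
Log2 fold change between plates labelled Mof knockout and wild-type plates (vertical axis, from edgeR) against the mean level over the 6 plates (horizontal axis, log2 CPM) for the 4336 genes tested in young neurons. The 6 named genes passed an adjusted p of 0.05, and grey points did not.

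Xist was at 370, 385 and 408 CPM on plates 1, 2 and 3, and at 229, 88.5 and 16.7 CPM on plates 4, 5 and 6. Every knockout plate lay below every wild-type plate, with a log2 fold change of -2.47 ± 0.36 (SE) and an edgeR adjusted p of 5.7e-07. Ddx3y had no transcript on the wild-type plates and 76.2, 46.4 and 61.2 CPM on plates 4, 5 and 6 (edgeR adjusted p = 0.000123). Against the limit that a count of 0 allows, 3 transcripts over the wild-type sums or 4.37 CPM, its pooled 51.2 CPM was at least 11.7-fold higher. Both genes mark the sex of the cells.

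Sox21 (chr14:118233232-118237030, minus strand), a transcription factor known from neural progenitors, was the autosomal gene with the largest change among those called. It had 1, 5 and 0 transcripts on plates 1, 2 and 3 and 3, 29 and 10 on plates 4, 5 and 6, which is 3.08, 15.5 and 0 CPM against 229, 64.1 and 55.7 CPM. The groups did not overlap, as for 4.98% of all genes tested in this direction. The log2 fold change was 2.87 ± 0.62 (SE) with an edgeR adjusted p of 0.00603. Sox21 passed the filter on low counts through the knockout plates, where it is high, as Ddx3y did, and both were also among the 33 genes called with no such filter. Its transcripts lay in 19 of 88 knockout-plate neurons and in 5 of 86 wild-type ones. Of the 42 knockout-plate transcripts, 32 were in 11 neurons of the diencephalon, midbrain and hindbrain class described below. In the bulk RNA-seq of the study, wild-type neural cells had 2567 ± 135 normalised reads (SD, n = 3) of Sox21 and sorted mural cells 212 ± 143. A lincRNA gene, Gm4675, overlaps Sox21 on the opposite strand and had 152 CPM on plate 4 and at most 6.63 CPM elsewhere.

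Zbtb7a (chr10:81135220-81152995, plus strand), a zinc finger transcriptional repressor, was read in more of the cells. Its level was 27.7, 65.2 and 25.5 CPM on plates 1, 2 and 3 and 76.2, 139 and 178 CPM on plates 4, 5 and 6, without overlap, although plates 3 and 4 rested on 1 transcript each. The log2 fold change was 1.73 ± 0.41 (SE) with an edgeR adjusted p of 0.0234. Knockout plates, where Zbtb7a is high, were also needed for it to pass the filter on low counts. With no such filter it was not called. Zbtb7a was found in 44 of 88 knockout-plate neurons and 21 of 86 wild-type neurons. It was at 137 against 60.7 CPM in cortical excitatory-like neurons, and at 195 against 32.4 CPM in the diencephalon, midbrain and hindbrain class.

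Tuba1c (chr15:99029891-99038110, plus strand), an alpha tubulin, had 15.4, 6.21 and 51.0 CPM on the wild-type plates and 0, 57.5 and 156 CPM on plates 4, 5 and 6, so the groups overlapped through plate 4. The log2 fold change was 2.70 ± 0.55 (SE) with an edgeR adjusted p of 0.0031. Tuba1c needed plates 5 and 6, where it is high, to pass the filter on low counts, and was also called with no such filter. Of 28 transcripts on plate 6, 18 came from 1 cell. Cells with a transcript of the core cell cycle genes described below held 42 of its 54 knockout-plate transcripts and 4 of its 9 wild-type ones. The coding sequences of alpha tubulin genes are nearly identical, and reads could be split between them, so this value is uncertain. Tuba1a, the main alpha tubulin of young neurons, did not pass the test (log2 fold change -0.03 ± 0.31, SE).

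Lars2 (chr9:123366927-123462666, plus strand), the mitochondrial leucyl-tRNA synthetase, was the only autosomal gene called lower. It stood at 887, 691 and 484 CPM on plates 1, 2 and 3 and at 229, 370 and 334 CPM on plates 4, 5 and 6. The groups did not overlap, as for 7.77% of all genes tested in this direction, and the log2 fold change was -1.10 ± 0.26 (SE) with an edgeR adjusted p of 0.0208. The lower level was seen in each neuron class, with 259 against 821 CPM in cortical excitatory-like neurons, 163 against 578 CPM in GABAergic-like neurons and 508 against 835 CPM in the diencephalon, midbrain and hindbrain class. In the bulk RNA-seq of the study, wild-type neural cells had 9694 ± 1244 normalised reads (SD, n = 3) of Lars2 and sorted endothelial cells 64364 ± 26165.

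**Figure D2:**
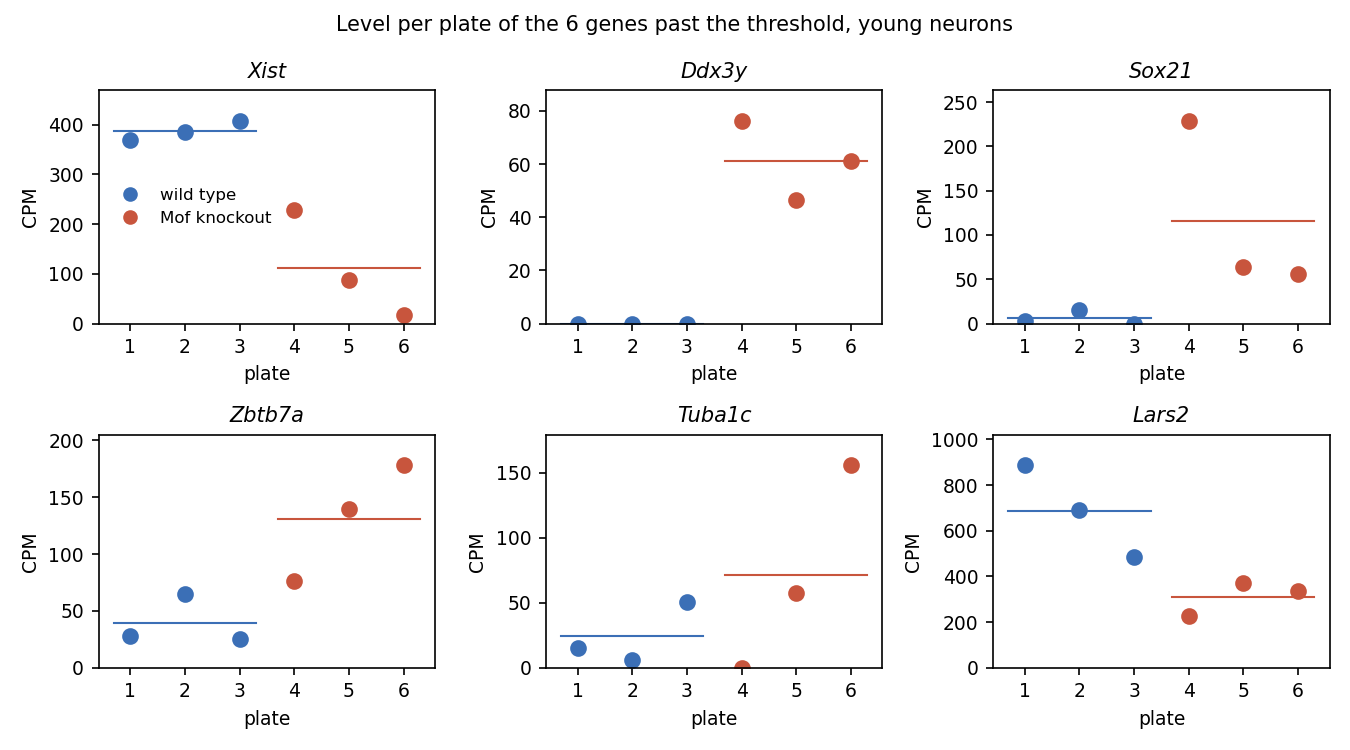
Level of each of the 6 genes past the threshold (vertical axis, CPM of the transcripts summed over the young neurons of a plate) on plates 1 to 3 (wild type) and 4 to 6 (labelled Mof knockout). Points are plates and lines are the mean of 3 plates; Tuba1c is at 0 on plate 4, which held 2 young neurons.

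None of these calls held in every setting. Of the 21 other settings tried, Xist was called in 17. Sox21 was called in 9 of the 15 in which it was tested, Ddx3y in 9 of 14, Tuba1c in 8 of 14, Lars2 in 8 of 21 and Zbtb7a in 5 of 17. The log2 fold change kept its sign throughout, between 2.30 and 4.38 for Sox21, 1.23 and 2.43 for Zbtb7a, 2.05 and 3.72 for Tuba1c and -1.78 and -0.81 for Lars2. DESeq2 called no gene, with 68 genes at an unadjusted p under 0.05. Without plates 3 and 4, chosen after seeing the data because they held 8 and 2 cells, none of the 6 was called, at 0.0542% of 5536 genes tested called in all.

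The promoters of the 4 autosomal genes are given here because these genes are the ones called apart from sex. Each is the 250 bases before the start of the RefSeq gene on GRCm38.p6, which for Zbtb7a lies inside the longer GENCODE gene span given above, 5′ to 3′ on the strand of the gene, with capitals at a GC box (GGGCGG) or a CCAAT box (CCAAT) read on either strand. Of 32851 RefSeq promoters of this length, 32.7% hold the GC box letters, 33.8% the CCAAT letters, 12.4% a TATA box (TATAAA) and 6.02% an E-box (CACGTG).
Sox21 at chr14:118237031-118237280, minus strand: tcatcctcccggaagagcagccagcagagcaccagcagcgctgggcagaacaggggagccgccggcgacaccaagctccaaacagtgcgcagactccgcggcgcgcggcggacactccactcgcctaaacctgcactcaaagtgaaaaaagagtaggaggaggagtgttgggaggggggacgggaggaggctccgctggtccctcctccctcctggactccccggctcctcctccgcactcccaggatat
Zbtb7a at chr10:81136021-81136270, plus strand: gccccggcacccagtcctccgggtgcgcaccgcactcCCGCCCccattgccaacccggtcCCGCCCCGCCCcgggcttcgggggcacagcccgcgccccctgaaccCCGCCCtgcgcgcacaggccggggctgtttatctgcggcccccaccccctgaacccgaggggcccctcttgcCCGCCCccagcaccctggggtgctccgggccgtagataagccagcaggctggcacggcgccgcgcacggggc
Tuba1c at chr15:99029641-99029890, plus strand: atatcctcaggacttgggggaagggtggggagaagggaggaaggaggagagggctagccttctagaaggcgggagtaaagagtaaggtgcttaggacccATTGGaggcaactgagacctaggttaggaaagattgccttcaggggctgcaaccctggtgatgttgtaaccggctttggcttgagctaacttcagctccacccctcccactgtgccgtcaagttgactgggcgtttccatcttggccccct
Lars2 at chr9:123366677-123366926, plus strand: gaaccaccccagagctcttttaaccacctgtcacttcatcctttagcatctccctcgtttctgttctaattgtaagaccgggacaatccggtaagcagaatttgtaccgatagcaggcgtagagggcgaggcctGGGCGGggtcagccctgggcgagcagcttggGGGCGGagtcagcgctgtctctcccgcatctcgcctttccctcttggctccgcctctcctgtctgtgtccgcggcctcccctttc
The GC box letters occur 5 times before Zbtb7a and 2 times before Lars2, and the CCAAT letters occur once before Tuba1c. None of the 4 windows holds the TATA or E-box letters, and the Sox21 window holds none of the 4 motifs. The CpG count is 17 before Sox21, 26 before Zbtb7a, 15 before Lars2 and 4 before Tuba1c, against a median of 6 over all promoters. These matches are descriptions of the sequence only.

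Other genes among the smallest p-values in each direction missed the threshold. Ptms, which encodes the small acidic protein parathymosin, was at 438, 457 and 586 CPM on plates 1 to 3 and at 1526, 883 and 679 CPM on plates 4 to 6 without overlap, with a log2 fold change of 0.84 ± 0.25 (SE) and an edgeR adjusted p of 0.29. Txndc15, which encodes a thioredoxin domain protein, was at 77.0, 59.0 and 153 CPM against 0, 15.5 and 22.3 CPM (log2 fold change -2.09 ± 0.53, SE, edgeR adjusted p = 0.061). Txndc15 had 23 transcripts in 44 wild-type cortical excitatory-like neurons and none in 45 of the knockout plates. The POU factor gene Pou2f2 (edgeR adjusted p = 0.061) and the forebrain GABAergic factor gene Dlx1 (edgeR adjusted p = 0.0719) also missed it, although Dlx1 was called in 6 of the 15 other settings that tested it and Pou2f2 in 5 of 18. The others were Onecut2 and Gm37324 among those higher, and Tshz2, Polr1d, Zcchc17 and Nap1l5 among those lower, with edgeR adjusted p between 0.15 and 0.529.

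The mix of neuron types among the young neurons differed between plates, and no class passed a test between genotypes. Each young neuron was placed in the class whose transcription factors and enzymes summed to 2 or more transcripts and to more than those of the other classes, and 169 of the 174 received a class. GABAergic-like neurons made up 10 of 39 classed cells on plate 1 (25.6%, exact 95% binomial interval 13.0 to 42.1%), 11 of 39 on plate 2 (28.2%, 15.0 to 44.9%) and 0 of 7 on plate 3 (up to 41.0%). On the knockout plates they made up 5 of 55 on plate 5 (9.09%, 3.02 to 20.0%), 2 of 27 on plate 6 (7.41%, 0.91 to 24.3%) and 0 of 2 on plate 4. These intervals cover counting error only. Plates 5 and 6 were lower than plates 1 and 2 but not lower than plate 3.

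Over plates with at least 5 classed cells, the GABAergic-like share was 17.9 ± 15.6% in wild type (SD, n = 3) and 8.25 ± 1.19% on the knockout plates (SD, n = 2), and the exact two-sided permutation test gave p = 0.4. Neurons of the diencephalon, midbrain and hindbrain class made up 33.3%, 12.8% and 28.6% on plates 1, 2 and 3, and 36.4% and 37.0% on plates 5 and 6, a difference of 11.8 percentage points with p = 0.2 in the exact test. The difference was 5.75 points without plate 2 and 5.79 points (exact p = 0.8) with each cell thinned to 1500 transcripts. For GABAergic-like cells it was -9.70 points, and it ranged from -18.7 points without plate 3 to -4.57 points without plate 2. Both classed cells of plate 4 were of the diencephalon, midbrain and hindbrain class. Cortical excitatory-like neurons made up 41.0%, 59.0% and 71.4% on plates 1, 2 and 3 and 54.5% and 55.6% on plates 5 and 6 (exact p = 0.7). Adjusted over the 3 classes, the exact p-values were 0.6, 0.6 and 0.7, and 2 plates against 3 cannot go below 0.1 before adjustment.

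**Figure D3:**
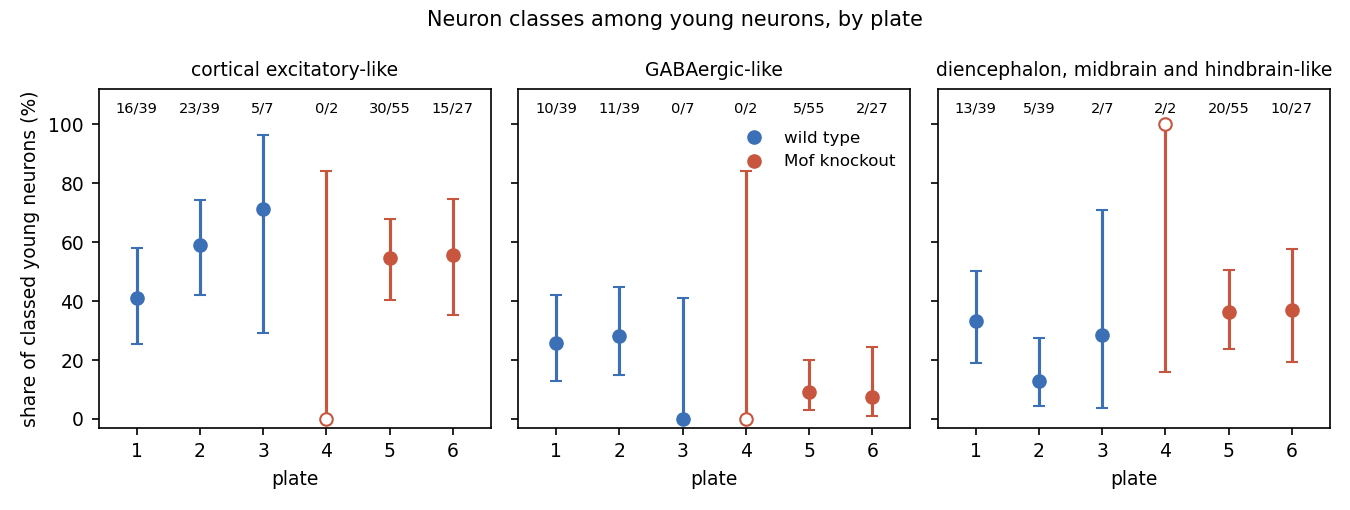
Share of classed young neurons in each of 3 neuron classes (vertical axis, percent) by plate, with exact 95% binomial intervals and the number of cells above each point; the open point is plate 4, with 2 classed cells, which entered no test. GABAergic-like cells were at 25.6% and 28.2% on plates 1 and 2, at 0 of 7 cells on plate 3 and under 10% on plates 5 and 6.

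The genes of the GABAergic list, which joins forebrain factors with genes for making and loading GABA, were in part arranged as the shares were. The summed level of the 11 genes of this list, which built the class and so gives no independent evidence, was 1002, 1138 and 229 CPM on plates 1 to 3 and 381, 463 and 289 CPM on plates 4 to 6. Dlx1 had 188, 187 and 25.5 CPM on plates 1 to 3 and 0, 68.7 and 5.56 CPM on plates 4 to 6, with a log2 fold change of -1.84 ± 0.45 (SE). Lhx6, a factor of interneurons from the medial ganglionic eminence, had 120, 43.6 and 0 CPM on plates 1 to 3 and 0, 2.21 and 0 CPM on plates 4 to 6. In both cases plate 3, with 8 cells, was as low as or lower than a knockout plate. Other members were arranged differently, with Gad1 at 92.4, 146 and 102 CPM on plates 1 to 3 and 305, 90.7 and 100.2 CPM on plates 4 to 6. Plate 4, with 0 GABAergic-like cells, thus owed most of its list sum to Gad1. Slc32a1, the vesicular GABA transporter gene, had 37.0, 49.7 and 0 CPM on plates 1 to 3 and 0, 48.7 and 27.8 CPM on plates 4 to 6.

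Only 3 of the 11 genes passed the filter in the full comparison, and 0 of them were called. Gad2 and Gad1, the enzymes that make GABA, had log2 fold changes of -0.74 ± 0.34 and -0.20 ± 0.38 (SE). Without plate 4, where 9 of the 11 were tested, Lhx6 (log2 fold change -5.11 ± 0.98, SE) was among those called lower by edgeR, with 0.194% of 5657 genes called in all. Lhx6 helped to define the class and passed the filter on low counts only through plates 1 and 2, where it is high, so this call supports nothing further. Without plate 3, those called lower by edgeR included Dlx1 (-1.94 ± 0.41, SE, adjusted p = 0.00104) and Dlx2 (-1.85 ± 0.50, SE, adjusted p = 0.0397). Lhx6 was called there too (adjusted p = 7.9e-07), beside 0.622% of 5623 genes in all. As members of the list that defined the class, they are again a description only.

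Within the GABAergic-like class the comparison rests on few cells. Dlx2, a factor related to Dlx1, was held by 14 of 21 wild-type cells, at 413 CPM, and by 4 of 7 knockout-plate cells, at 272 CPM. Dlx1 was held by 16 of the wild-type cells, at 755 CPM, and by 2 of the knockout-plate cells, at 563 CPM. For Lhx6 these were 6 cells at 328 CPM and 1 cell at 18.1 CPM. All of these genes helped to define the class, so their levels are a description only. The fit on GABAergic-like cells alone, from plates 1, 2, 5 and 6, called 0 of 827 genes, with 43 at an unadjusted p under 0.05.

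Genes of midbrain and diencephalic neurons built the class named after them, so their levels repeat its share and give no independent evidence. In the list of 11 genes for the diencephalon, midbrain and hindbrain, 9 were tested and 0 called by edgeR, 4 of them at an unadjusted p under 0.05. Their median log2 fold change was 0.77 against -0.06 over all genes tested. The list summed to 1450, 763 and 2380 CPM on plates 1 to 3 and 3355, 1581 and 1807 CPM on plates 4 to 6, with plate 3 above plates 5 and 6. Tfap2b was at 98.9, 3.11 and 0 CPM against 763, 236 and 246 CPM without overlap, with a log2 fold change of 2.50 ± 0.90 (SE) that did not pass (edgeR adjusted p = 0.854). Without plate 3 it was called at 2.43 ± 0.42 (SE, edgeR adjusted p = 3.1e-05), as was Otx2 (edgeR adjusted p = 0.0138). Otx2 was at 24.6, 125 and 332 CPM on plates 1 to 3 and at 1758, 188 and 413 CPM on plates 4 to 6. The plate left out was thus above plate 5. Tcf7l2, a Wnt pathway factor abundant in the thalamus, had a log2 fold change of -0.55 ± 0.70 (SE), and its groups overlapped.

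A pair of genes of midbrain neurons was called higher once plate 3, or plates 3 and 4, were left out. Without plate 3 alone the edgeR adjusted p was 5.7e-09 for Tal2 and 9.0e-05 for Gata3, with 0.622% of 5623 genes called in all. Tal2, a bHLH factor of GABAergic neurons in the midbrain, had no transcript on plates 1 and 2 and 86.3 and 105.9 CPM on plates 5 and 6, so its pooled 91.9 CPM was at least 19.8-fold above the limit of 4.64 CPM that 3 transcripts over plates 1 and 2 allow. Plate 3 had 76.5 CPM of Tal2 in 1 cell and plate 4 had 1145 CPM in 1 cell. Gata3, a zinc finger factor of the same neurons, was at 58.6 and 46.6 CPM on plates 1 and 2 and at 233 and 240 CPM on plates 5 and 6, with a log2 fold change of 2.23 ± 0.29 (SE) that passed in edgeR. On plate 3 it was at 485 CPM from 19 transcripts in 1 cell, above every knockout plate. These 2 genes were named after their values were seen, and Tal2 passed the filter on low counts there only through plates 5 and 6, where it is high, so its call is a description only. In the full comparison neither was called (edgeR adjusted p = 0.856 for Tal2 and 0.951 for Gata3).

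The transcripts of these factors came from few cells. On plate 5, 35 of 39 Tal2 transcripts lay in the 3 cells with the most, and on plate 6, 18 of 19 did. Tfap2b had 99 of 106 transcripts on plate 5 in 3 cells and 42 of 44 on plate 6. Otx2, a homeobox factor of the forebrain and midbrain, was found in 18 of 88 knockout-plate neurons and 9 of 86 wild-type ones, and all but 1 of the knockout-plate cells belonged to the diencephalon, midbrain and hindbrain class. Pou2f2 had 128 of its 162 knockout-plate transcripts in that class, at 521 CPM there against 91.8 CPM in the wild-type cells of the class. In cortical excitatory-like cells Pou2f2 was at 54.8 and 57.8 CPM.

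Genes of cortical excitatory neurons gave no call. Of 8 genes on this list 7 were tested and 0 were called by edgeR, 0 of them at an unadjusted p under 0.05, and the median log2 fold change was 0.08. Neurod6 was at 466, 650 and 306 CPM on plates 1 to 3 and at 605 and 624 CPM on plates 5 and 6, with 0 on plate 4. Neurod2 was at 243, 566 and 408 CPM on plates 1 to 3 and at 487 and 535 CPM on plates 5 and 6. Plate 4 had no cell of this class.

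**Figure D4:**
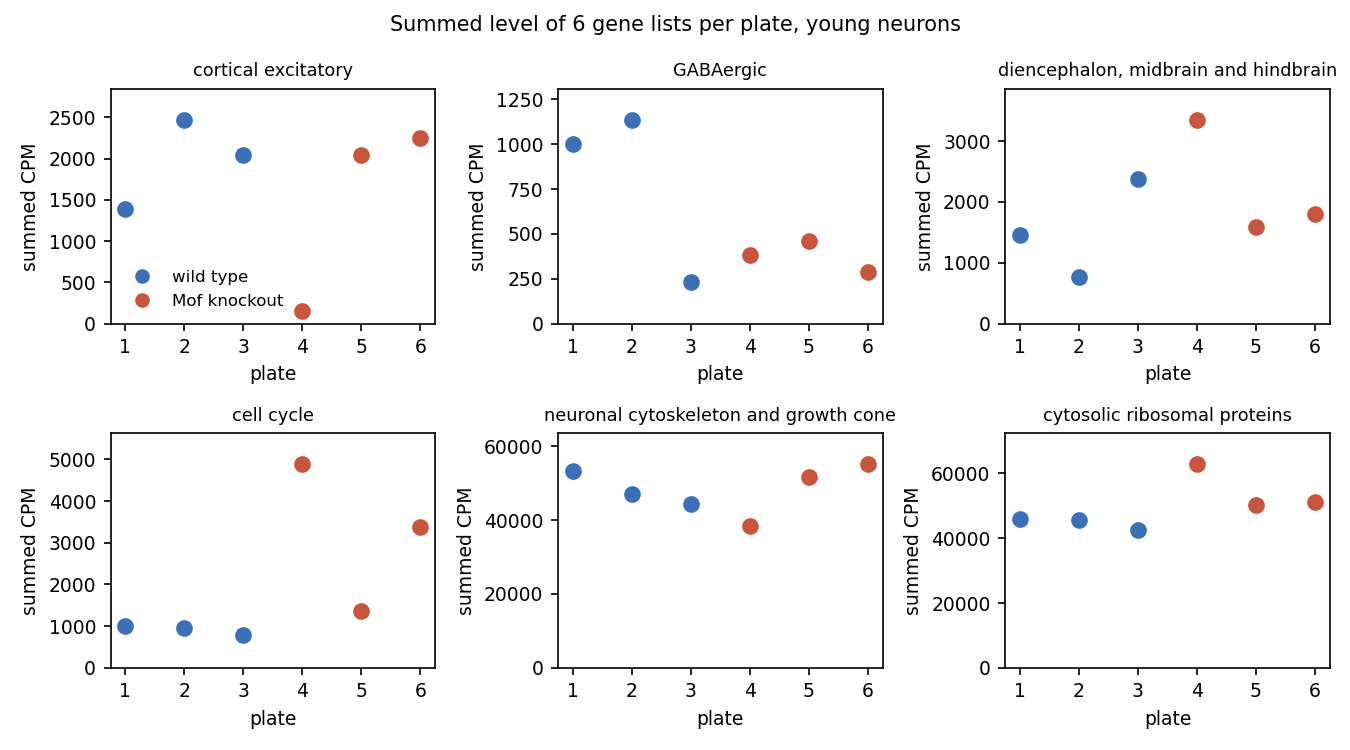
Summed level of 6 gene lists (vertical axes, summed CPM from 0) in the young neurons of each plate. The GABAergic list is at 1002 and 1138 CPM on plates 1 and 2 and between 229 and 463 CPM on the others, and the cell cycle and ribosomal protein lists are higher on plates 4 to 6 than on plates 1 to 3.

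The summed level of cell cycle genes was above the wild-type range on each knockout plate, and no gene of the list was called. The 20 genes of the list summed to 1008, 948 and 791 CPM on plates 1 to 3 and to 4893, 1361 and 3389 CPM on plates 4 to 6. On plate 4 this came from Ccnd2 and Cdkn1c, each at 2294 CPM, in 2 cells. For 6 core genes of S phase and mitosis, Mki67, Top2a, Cdk1, Ccna2, Ccnb1 and Cenpf, the sum was 163, 74.6 and 25.5 CPM on plates 1 to 3 and 76.2, 285 and 1182 CPM on plates 4 to 6, so that plate 4 lay within the wild-type range. These 6 were picked after the values were seen.

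At least 1 core transcript was found in 34 of 86 wild-type neurons and in 36 of 88 knockout-plate neurons, and at least 5 in 4 and 6. After thinning each cell to 1500 transcripts, 11 of 86 and 13 of 88 cells held at least 1. On plate 6, 204 of the 212 core transcripts lay in 3 cells of 1 library, and on plate 5, 99 of 129 lay in 3 cells. The cell with the most held 100 core transcripts beside 10 of the neuron markers and 3 of the progenitor markers. The share of cells with such transcripts was thus near equal, while the largest counts were on plates 5 and 6.

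Of the 20 cell cycle genes, 5 were tested in the full comparison and 0 called by edgeR, 1 at an unadjusted p under 0.05. Ccnd2, a D-type cyclin, was at 117, 218 and 127 CPM on plates 1 to 3 and at 2294, 257 and 429 CPM on plates 4 to 6, without overlap but with a log2 fold change of 1.63 ± 0.80 (SE) and an edgeR adjusted p of 0.892. Without plate 3 Ccnd2 was called (1.58 ± 0.37, SE, edgeR adjusted p = 0.0124), and so were Mki67, Ccna2, Ccnb1, Cdk1, Top2a and Ube2c, which were below the filter on low counts in the full comparison. These latter genes passed it there with plates 5 and 6, where they are high, so their calls are a description only. Without plate 4, 13 were tested, and Mki67 (log2 fold change 2.59 ± 0.53, SE) and Ccna2 (3.24 ± 0.68, SE) were called higher, beside 0.194% of 5657 genes called in all. Both were below the filter on low counts in the full comparison and passed it here through plates 5 and 6, where they are high, so these calls are a description only. In the young neurons without a core transcript, a set chosen after seeing the data, the list summed to 568, 774 and 393 CPM on plates 1 to 3 and to 867 and 948 CPM on plates 5 and 6. In that set, the single cell of plate 4 gave 8298 CPM.

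**Figure D5:**
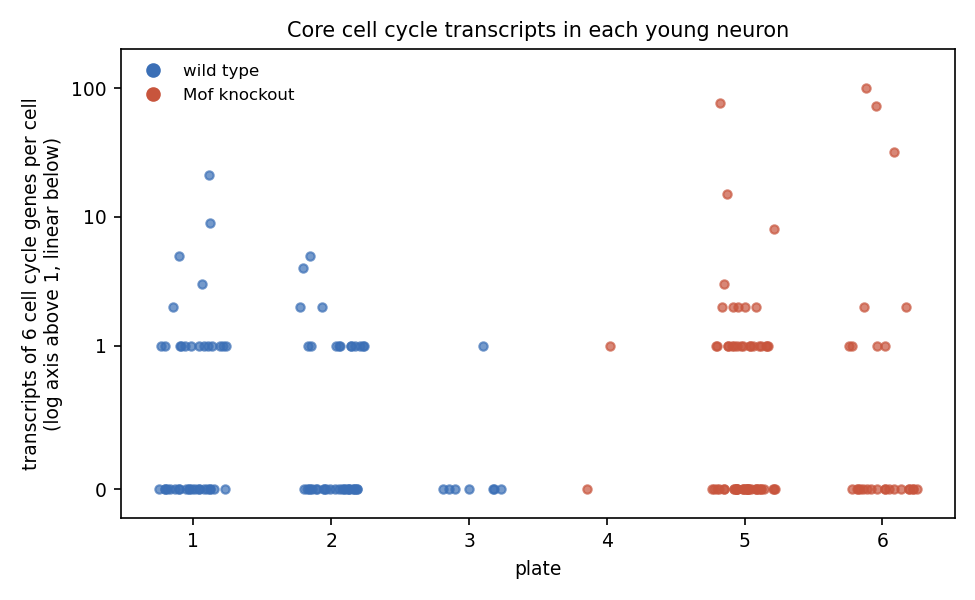
Transcripts of Mki67, Top2a, Cdk1, Ccna2, Ccnb1 and Cenpf summed in each young neuron (vertical axis, linear up to 1 and logarithmic above) by plate; each point is a cell, spread sideways at random. Most cells on every plate hold 0 or 1, and the highest sum, 100 transcripts, is in a cell of plate 6.

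Among the lists for the general equipment of a young neuron, which do not hold Tuba1c, no gene was called. None of 29 tested genes for the neuronal cytoskeleton and growth cone was called by edgeR (1 at an unadjusted p under 0.05), and 14 had a log2 fold change above 0 and 15 below. Their sum was 53202, 47108 and 44436 CPM on plates 1 to 3 and 38370, 51688 and 55196 CPM on plates 4 to 6. For axon guidance and adhesion 24 genes were tested, for synaptic vesicles 14, for ion channels and receptors 16, for transcription factors of new neurons 30 and for neuronal RNA-binding proteins 17, and 0 were called in each, with 2, 0, 0, 3 and 2 at an unadjusted p under 0.05. Their medians lay between -0.05 and 0.11.

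The most abundant members of these lists were not called. The adhesion molecule gene Ncam1 had a log2 fold change of -0.20 ± 0.24 (SE), the vesicle gene Syt11 0.02 ± 0.24, the imprinted membrane protein gene Nnat 0.11 ± 0.31, the neuronal Sox factor gene Sox11 0.00 ± 0.23 and the RNA-binding protein gene Elavl3 0.22 ± 0.24. Of the rule's own markers, Tubb3 had -0.14 ± 0.23 and Dcx -0.08 ± 0.24, given as a description.

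Ribosomal protein and respiratory chain genes leaned in opposite directions without any call. Of 71 cytosolic ribosomal protein genes tested, 55 had a log2 fold change above 0, with a median of 0.15, where 1898 of all 4336 genes were above 0. On 14 of the 71 every knockout plate was above every wild-type plate, which held for 4.98% of all genes. Their sum was 45845, 45554 and 42681 CPM on plates 1 to 3 and 62960, 50397 and 51266 CPM on plates 4 to 6. Rpsa, a protein of the small subunit, had a log2 fold change of 0.52 ± 0.23 (SE, edgeR adjusted p = 0.847).

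Of 71 tested genes for the nuclear-encoded respiratory chain, 55 had a log2 fold change below 0, with a median of -0.24 and 14 below every wild-type plate on every knockout plate, against 7.77% of all genes. The sum was 12117, 10811 and 11010 CPM on plates 1 to 3 and 7851, 10061 and 10203 CPM on plates 4 to 6. Among the 71 ribosomal protein genes 3, and among the 71 respiratory chain genes 2, were at an unadjusted p under 0.05, and edgeR called 0 of each. Without plates 3 and 4 the medians were 0.22 and -0.12. The 13 mitochondrially encoded genes had a median of -0.19, 0 of them called by edgeR and 3 at an unadjusted p under 0.05.

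Stress and metabolic genes gave no call either. Of 6 tested p53 targets and apoptosis genes, 7 genes of the integrated stress response and 12 immediate early and heat shock genes, 0 were called by edgeR and 0 were at an unadjusted p under 0.05, with medians of -0.40, 0.36 and 0.23. For cholesterol synthesis (9 tested), fatty acid use (5) and glycolysis (10), 0 were called, 0 were at an unadjusted p under 0.05 and the medians were -0.11, -0.13 and 0.01. Atf4, the transcription factor of the integrated stress response, had a log2 fold change of 0.40 ± 0.26 (SE). Of 18 p53 targets in the tables, the other 12 were below the filter on low counts.

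Genes for the partners of MOF gave no call. Of 12 genes for MOF and its MSL and NSL partners, 9 were tested, 0 were called by edgeR and 0 were at an unadjusted p under 0.05, with log2 fold changes between -0.36 and 0.50 and a median of -0.08. Msl1, the scaffold of the MSL complex, was at 203, 277 and 204 CPM on plates 1 to 3 and at 229, 310 and 351 CPM on plates 4 to 6 (log2 fold change 0.42 ± 0.30, SE). Hcfc1, a host cell factor of the NSL complex, was at 219, 199 and 153 CPM and at 152, 170 and 139 CPM (-0.36 ± 0.33, SE).

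Transcripts of other cell types were present and not equal between plates, and their part in the results was not tested. The 12 further microglial markers summed to 58.5, 37.3 and 357 CPM on plates 1 to 3 and to 381, 312 and 27.8 CPM on plates 4 to 6. Apoe, a lipid carrier gene, contributed 37.0, 18.6 and 178 CPM on plates 1 to 3 and 152, 142 and 11.1 CPM on plates 4 to 6. The 10 further mural markers summed to 271, 96.3 and 204 CPM on plates 1 to 3 and to 686, 164 and 284 CPM on plates 4 to 6. The 10 further progenitor markers summed to 499, 494 and 433 CPM on plates 1 to 3 and to 1068, 367 and 680 CPM on plates 4 to 6. The 10 further endothelial markers summed to between 0 and 156 CPM. The rule markers of other cells were held down by the selection. The 4 endothelial ones stood between 0 and 66.8 CPM and the 4 mural ones between 0 and 77.9 CPM, and the 6 erythroid genes in the tables were at 0 on every plate. Of the wells with none of the mural, endothelial and microglial rule markers, a fit of 1643 genes called 0, with 88 at an unadjusted p under 0.05. The repeat-derived transcript Gm10800 and other nuclear RNA summed to between 61565 and 150390 CPM, with the highest values on plates 3, 4 and 5.

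Whether the genotype difference in young neurons departed from that in neural progenitors of the same plates was tested as an interaction. Plate 4, with 2 young neurons, was left out, and 15 of 6056 genes (0.248%) passed in edgeR, of which 12 were shifted upwards in young neurons relative to progenitors and 3 downwards. In the separate fit of the progenitors of these 5 plates, 0 of 3323 genes were called, with 232 at an unadjusted p under 0.05. Ube2c, Mki67, Ccna2 and Plk1, all shifted upwards, are on the cell cycle list, and whether that list is overrepresented was not tested.

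Mki67 was at 369, 545 and 537 CPM in progenitors of plates 1, 2 and 3 and at 483 and 644 CPM in those of plates 5 and 6, so progenitor levels overlapped. In young neurons it was at 18.5, 21.7 and 0 CPM against 59.7 and 189 CPM. The interaction was 2.21 ± 0.52 on the log2 scale (SE, edgeR adjusted p = 0.0184). Of the 34 Mki67 transcripts on plate 6, 31 lay in 3 cells.

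Nsg2, a neuronal endosomal protein gene, gave the smallest p (interaction 2.39 ± 0.45 on the log2 scale, SE, edgeR adjusted p = 0.000815). Young neurons had 745, 743 and 765 CPM of Nsg2 on plates 1, 2 and 3 and 743 and 690 CPM on plates 5 and 6. Progenitors had 139, 223 and 239 CPM on plates 1, 2 and 3 and 29.6 and 64.4 CPM on plates 5 and 6. The young neurons overlapped and the progenitors of these 5 plates did not, while the progenitors of plate 4, outside this test, had 234 CPM.

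Sox21 levels overlapped in progenitors, which had 189, 223 and 39.8 CPM on plates 1, 2 and 3 and 166 and 206 CPM on plates 5 and 6, where young neurons had 3.1, 15.5 and 0 CPM and 64.1 and 55.7 CPM. The interaction was 2.91 ± 0.70 on the log2 scale (SE, edgeR adjusted p = 0.0217). The number of genes with an interaction ranged from 1 without plate 2 to 24 without plate 3, and was 4 without plate 6.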

How the data were processed

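The authors deposited, per mCEL-Seq2 library, expected counts of transcripts per gene and barcode: each value above 0 gave a whole number of molecular identifiers (within 0.01) once the correction for collisions among 4096 identifiers was undone. For the bulk libraries the authors deposited normalised counts, a signal of whole reads divided by 1 factor per library, used here for levels only. The submitters' processing notes name BWA 0.6.2-r126, STAR, featureCounts, DESeq2 and mm10 without roles.

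Filled barcodes were kept above 1500 transcripts, spike-ins left out. Expected counts were summed over the young neurons of a plate, rounded, and tested with edgeR 4.0.16 (TMM, filterByExpr, robust quasi-likelihood, Benjamini-Hochberg, threshold 0.05) in R 4.3.3. DESeq2 1.42.0, other normalisations, filters, cell subsets and leaving out plates were alternatives. CPM values are shares of the plate sum with no further scaling, and SE is the log2 fold change divided by the square root of F. Shares and medians were compared with exact permutation tests over plates. Plate sums ran from 13123 to 452341 transcripts, so the plates with few cells limit precision. The fit of all young neurons was tested on simulated data with 200 changed genes. No doublet caller was run on sorted wells, and a library held at most 96 wells, numbered alike in every library.

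Members and gene lists were chosen with earlier results of these data known. Genes are named by rule: Kat8, the rule markers, sex-linked genes, called genes without overlap between plates (10 per direction), the smallest p up to 8 per direction, called members of each list (at most 4) or otherwise its 2 tested members with the highest mean CPM, and the 5 smallest interaction p. Coordinates are GRCm38; promoters are from RefSeq. Of 24262 gene names 23132 matched GENCODE M21. The results of 1 gene are not reported here.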

Additional observations from a re-analysis of the deposited data

Results flagged for a closer look

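The genotype difference was not the same in young neurons and neural progenitors for 15 genes, by the edgeR interaction test on plates 1, 2, 3, 5 and 6. On the log2 scale, young neurons relative to progenitors, the interaction among those reported was 2.39 for Nsg2, 2.45 for Ube2c, 2.17 for Ttc28, 3.52 for Scg3, 2.21 for Mki67, 4.51 for Kif23, 2.91 for Sox21, 2.80 for Ccna2, 4.77 for Ube2ql1, 5.70 for Plk1, 2.71 for Aspm and 0.96 for Gm42418. It was -1.64 for Tcf7l2 and -6.03 for Chaf1b. Plk1 had no transcript in wild-type young neurons and Chaf1b none in young neurons of plates 5 and 6, so their fitted values depend on the prior count and are no bounds. Scg3, a granin of secretory vesicles, was at 148, 155 and 51.0 CPM in young neurons of plates 1, 2 and 3 and 146 and 195 CPM in those of plates 5 and 6, and had 21, 12 and 0 transcripts in the progenitors of plates 1, 2 and 3 and 3 and 0 in those of plates 5 and 6.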

How the results depend on the processing

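The count of genes called between genotypes, 6 in the comparison as described, moved with most choices. It was 0 with DESeq2 (68 at an unadjusted p under 0.05), 11 with RLE size factors, 33 with no filter on low counts, 3 in wells over 3000 transcripts, 1 with a marker sum of 10 or more, 0 in wells without mural, endothelial or microglial markers (88 at an unadjusted p under 0.05), 2 after thinning, 0 in GABAergic-like cells (43 at an unadjusted p under 0.05) and 2 with both classes and class as a covariate. Leaving out 1 plate gave 1 to 35 calls, with 2 without plate 1, 1 without plate 2, 35 without plate 3, 11 without plate 4, 3 without plate 5 and 11 without plate 6. Without plates 3 and 4, an alternative chosen after seeing the data, it was 3. Fewer genes are tested in the smaller sums; for the other settings the cause was not tested. All 6 calls were shared with RLE size factors, plain library totals, the counts without mitochondrial genes and Gm10800, and the fits without plate 3 or without plate 4. The interaction gave 1 to 24 calls when 1 plate was left out and 14 with RLE size factors. The class shares, depth and Kat8 kept their side of the threshold in each setting tried, in tests that 3 plates against 3 or fewer cannot pass. No paired analysis was possible because the wild-type and knockout plates share no replicate number. Depth limits the results most on plates 3 and 4, where 1 transcript is worth 25.5 and 76.2 CPM.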

Other observations

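Plate 4 rests on few cells. Both young neurons of plate 4 were of the diencephalon, midbrain and hindbrain class. Their summed transcripts were at 915 CPM for Ebf3, a factor of young neurons outside the cortex, at 763 CPM for Tfap2b and at 1145 CPM for Tal2. The single Tal2-positive cell of plate 4 held 15 transcripts of it, as many as the cell with the most on plate 5 and on plate 6.

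The Cajal-Retzius neuron gene Reln, which encodes an extracellular guide of migration, was at 111, 121 and 0 CPM on plates 1 to 3 and 76.2, 48.7 and 94.6 CPM on plates 4 to 6, and did not pass (log2 fold change -0.67 ± 0.41, SE). Among progenitor genes in young neurons, Sox2, which the rule used and which is therefore a description only, was at 231, 171 and 25.5 CPM on plates 1 to 3 and 0, 97.3 and 77.9 CPM on plates 4 to 6 (log2 fold change -1.04 ± 0.36, SE, not called). Vim was at 253, 171 and 102 CPM and at 839, 168 and 424 CPM (0.66 ± 0.33, SE, not called). In the fit on cortical excitatory-like cells alone, which held cells of plates 1, 2, 3, 5 and 6, 7 of 2807 genes (0.249%) were called by edgeR. Ccnd2, Cdk1, Mki67, Top2a and Ube2c were higher there on the knockout plates, and Lars2 and Xist lower. Of these, Cdk1, Mki67, Top2a and Ube2c were below the filter on low counts in the comparison of all young neurons and are given as a description only. In this class 3 cells of the knockout plates held 76, 72 and 32 transcripts of the 6 core cell cycle genes. Mki67, Top2a and Ube2c had 8, 4 and 9 transcripts in its wild-type cells and 45, 56 and 69 in its knockout-plate cells.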
